A study of Glycine soja with 4 samples.

Results

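miR393 and miR394, with the F-box genes listed as their cleavage targets, were described in roots of wild soybean (*Glycine soja*). Every name in the small RNA lists that carried exactly the number of miR393 or miR394 was taken, whatever its prefix or letter, and each distinct sequence was counted once. This gave 4 of 217 distinct miRNA sequences, PN-miR393-1, PN-miR393-2, PN-miR394 and PN-miR394a. Every gene listed for these numbers in the degradome target lists was taken as well, which gave 9 of 78 target genes, 5 for miR393 and 4 for miR394. The rule used names alone.

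The study asked which miRNAs and which of their targets responded to aluminum (Al) in an acid root medium. Al-treated seedlings of genotype BW69 stood in nutrient solution with 50 µmol/L AlCl3, and Al-free seedlings in the same solution with 0 µmol/L, both at pH 4.5. BW69 is a single wild genotype, selected for its Al tolerance. The apical 10 cm of the root was collected between 1 h and 96 h from the start of treatment, with the other harvests at 3 h, 6 h, 12 h, 24 h and 48 h. Roots of these 7 harvest times were pooled, so no time course could be followed, and each condition had 1 small RNA library and 1 degradome library. There were therefore no replicates, and every test compared the reads of 2 libraries, not the conditions.

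F-box proteins are the substrate-recognition subunits of SCF ubiquitin ligases, which mark proteins for degradation. In Arabidopsis, miR393 guides the cleavage of mRNAs of the TIR1/AFB family, leucine-rich-repeat F-box proteins that act as auxin receptors, and it thereby sets how strongly roots respond to auxin. Also in Arabidopsis, miR394 guides the cleavage of the mRNA of LEAF CURLING RESPONSIVENESS, an F-box protein without leucine-rich repeats. Degradome sequencing reads the 5′ ends of uncapped mRNA fragments, so that a cut guided by a miRNA appears as a pile of ends opposite the middle of the miRNA.

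The 4 listed sequences are shown because the names alone do not tell how the forms of one number differ. They are written 5′ to 3′ as deposited, with T for U, and the capitals mark bases 2 to 8, the seed.
PN-miR393-1: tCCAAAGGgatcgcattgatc
PN-miR393-2: tTCCAAAGggatcgcattgatc
PN-miR394: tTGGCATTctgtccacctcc
PN-miR394a: aGCTCTGTtggctacactttg

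The forms of miR393 differed by 1 base. PN-miR393-1, of 21 nt, was identical to bases 2 to 22 of PN-miR393-2, of 22 nt, so the longer form carried 1 additional T at its 5′ end and the seed was shifted by 1 base. Such a difference was uncommon among the 217 sequences: 4 pairs differed by 1 extra base at the 5′ end, of 5 pairs in which one sequence lay inside another. PN-miR394, of 20 nt, and PN-miR394a, of 21 nt, had different seeds, and neither lay inside the other or inside a form of miR393. None of the 4 seeds was shared with any other listed sequence. A 5′ T was present in 3 of these 4 sequences and in 88 of all 217 (40.6%), and PN-miR394a, which began with A, was the exception. The GC content was 47.6% in PN-miR393-1, 45.5% in PN-miR393-2, 55% in PN-miR394 and 47.6% in PN-miR394a, against a median of 45.5% over all listed sequences. Of the 217 sequences, 34 had the length of PN-miR393-2, 78 that of PN-miR393-1 and PN-miR394a, and 12 that of PN-miR394.

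The listed sequences summed to 44493 raw reads in the Al-treated library and 30411 in the Al-free library, with a read for 208 sequences in the Al-treated library and for 200 in the Al-free library. All 4 sequences of miR393 and miR394 had reads in both. They were among the less abundant sequences except PN-miR393-2, since the median sequence had 10 reads in the Al-treated library and 8 in the Al-free library. The files hold no mRNA levels, so the root label could not be checked against marker genes. Levels are given as RPM, the raw reads of a sequence per 1000000 clean reads of its library. The 95% intervals are exact Poisson or Clopper-Pearson intervals, which cover counting error only and leave out variation between libraries and between plants. Reads copied by PCR are not independent molecules, so the intervals may be too narrow even for counting error.

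PN-miR393-2 was the most abundant of the 4 sequences in both libraries. It had 36 reads in the Al-treated library and 19 reads in the Al-free library, which ranked it 44th and 55th of 217 sequences. This was 4.94 RPM (95% interval 3.46 to 6.84) in the Al-treated library and 2.70 RPM (1.63 to 4.22) in the Al-free library. The log2 ratio of Al-treated over Al-free was 0.87, with an interval of 0.03 to 1.76. An exact two-sided binomial test of how its 55 reads split between the libraries gave p = 0.0314, and the Benjamini-Hochberg adjusted p over all 217 sequences was 0.114, so the difference did not pass. With 55 reads in all, at least 36 had to fall in the Al-treated library for an unadjusted p under 0.05, and 36 did.

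PN-miR393-1 had 6 reads in the Al-treated library and 2 reads in the Al-free library. Its level was 0.823 RPM (0.302 to 1.79) in the Al-treated library and 0.284 RPM (0.0344 to 1.03) in the Al-free library. The log2 ratio was 1.53, the largest of the 4, but its interval of −0.95 to 4.87 spanned zero and the exact binomial p was 0.290 (adjusted 0.599). A difference was not detectable at this depth, since all 8 reads had to fall in the Al-treated library to bring an unadjusted p under 0.05 in that direction.

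The sequences of miR394 were at the detection limit of both libraries. PN-miR394 had 1 read in the Al-treated library and 1 read in the Al-free library, or 0.137 RPM (0.00347 to 0.765) and 0.142 RPM (0.0036 to 0.792). PN-miR394a had 1 read in the Al-treated library and 2 reads in the Al-free library, or 0.137 RPM (0.00347 to 0.765) and 0.284 RPM (0.0344 to 1.03). The log2 ratios were −0.05 (interval −6.35 to 6.24) for PN-miR394 and −1.05 (−6.93 to 3.21) for PN-miR394a. The exact binomial p was 1 for PN-miR394 and 0.619 for PN-miR394a, with adjusted values of 1 and 0.838. No split of these reads could have passed, as the smallest exact p was 0.241 for PN-miR394 and 0.119 for PN-miR394a.

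**Figure D1:**
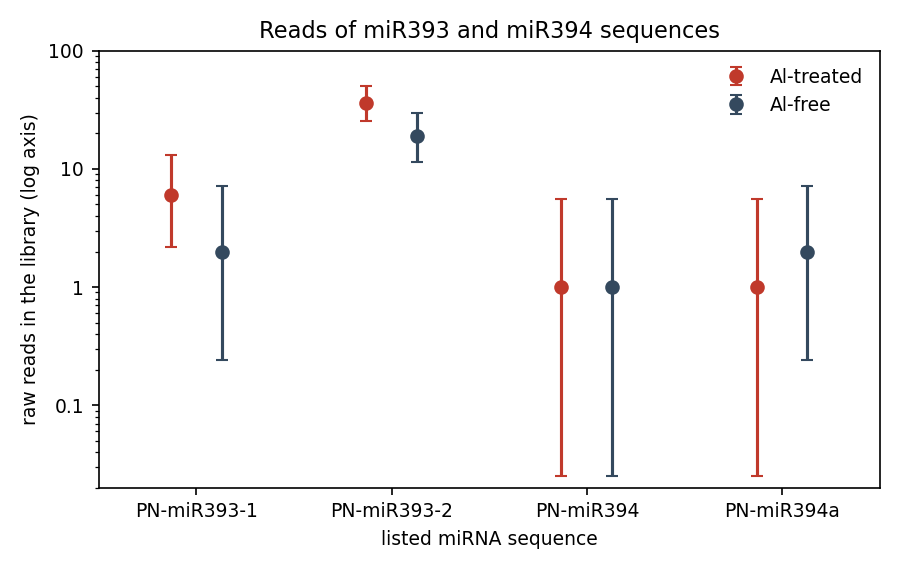
Raw reads (log axis) of the 4 sequences in the Al-treated library (red, left of each pair) and the Al-free library (dark blue, right), with 95% exact Poisson intervals as bars. PN-miR393-2 stands above the others with 36 and 19 reads, and the intervals of the 2 libraries overlap for every sequence.

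By the exact test with adjusted p under 0.05, 0 of the 4 sequences were called, against 53 of 217 sequences in all (24.4%), of which 32 had more and 21 fewer RPM under Al. At an unadjusted exact p under 0.05, 1 of the 4 was called, PN-miR393-2. The share of all 217 sequences at this unadjusted limit was not counted, so this 1 has no background beside it. The study's own criterion was a log2 ratio beyond 1 or −1 among known miRNAs with 10 or more raw reads and new ones with 20 or more. Among the sequences that met such a minimum in at least 1 library, 38 of 86 passed the fold limit (44.2%; 25 higher and 13 lower), and PN-miR393-2, the only one of the 4 with enough reads, did not. With no read minimum, 78 of the 191 sequences with a read in both libraries lay beyond the limit (40.8%), and so did 2 of the 4, PN-miR393-1 upward and PN-miR394a downward, on 8 and 3 reads. The median log2 ratio was 0.41 over the 4 sequences and 0.36 over all 217.

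**Figure D2:**
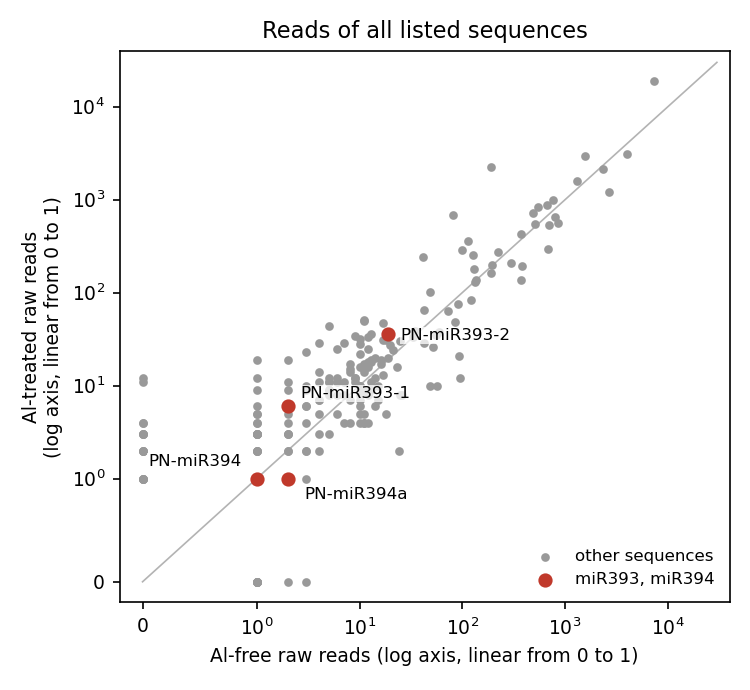
Raw reads in the Al-treated library (vertical) against the Al-free library (horizontal) for the 217 listed sequences, both on log axes that are linear from 0 to 1, with the line of equal reads. PN-miR393-2 (36 and 19 reads) and PN-miR393-1 (6 and 2) lie above the line, PN-miR394 (1 and 1) on it and PN-miR394a (1 and 2) below it.

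Summed over its 2 forms, miR393 had 42 reads in the Al-treated library and 21 reads in the Al-free library, 5.76 RPM (4.15 to 7.79) against 2.98 RPM (1.85 to 4.56). The log2 ratio was 0.95 (interval 0.16 to 1.78), the exact binomial p was 0.0160, and the adjusted p over the 143 miRNA numbers and unnumbered candidates tested was 0.0497, with 46 of the 143 under 0.05. This call lay at the threshold and was lost when the libraries were scaled in another way, or when unnumbered candidates took the numbers of identical sequences in the study's sequence list (adjusted exact p 0.0502). With the summed listed reads as library totals the log2 ratio was 0.45 and the adjusted exact p 0.479. As a share of all listed reads, miR393 took 0.0944% in the Al-treated library and 0.0691% in the Al-free library.

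Summed over its 2 sequences, miR394 had 2 reads in the Al-treated library and 3 reads in the Al-free library, 0.274 RPM (0.0332 to 0.991) against 0.426 RPM (0.0879 to 1.25). The log2 ratio was −0.64 with an interval of −4.22 to 2.49, and the exact binomial p was 0.682 (adjusted 0.838). With 5 reads, only a complete absence from the Al-treated library could have given an unadjusted p under 0.05, the smallest being 0.0286.

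The ratios of the 2 numbers were compared directly, which does not depend on how the libraries are scaled. The log2 ratio of miR393 exceeded that of miR394 by 1.58, but the interval of the log2 odds ratio ran from −1.68 to 5.24, and Fisher's exact test gave p = 0.337 (adjusted 1 over 7 such comparisons between numbers and between sequences). Within miR393, the 21-nt form took 6 of 42 reads (14.3%, Clopper-Pearson interval 5.43 to 28.5%) in the Al-treated library and 2 of 21 reads (9.52%, 1.17 to 30.4%) in the Al-free library. The log2 ratios of the forms differed by 0.66, with an interval of the log2 odds ratio of −2.01 to 4.12 and a Fisher's exact p of 0.708 (adjusted 1). The 22-nt form was thus the more abundant one in both libraries, and a shift between the forms was not detectable with these reads. In Arabidopsis, miRNAs of 22 nt are known for triggering secondary small RNAs from the mRNAs they cut, which these files do not measure.

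Other miRNAs of auxin signalling and of F-box genes were taken from a list by number: miR160, miR164, miR167 and miR390 with miR393 for auxin, and miR2111 with miR393 and miR394 for F-box genes. Of the 10 sequences on this list beside those of miR393 and miR394, 2 rose, 1 fell and 7 did not pass the exact test, a share near the 24.4% called over all 217 sequences, and the median log2 ratio was −0.17 against 0.36 over all. The auxin list as a whole held 11 sequences (2 rose, 1 fell, 8 did not pass) with a median log2 ratio of −0.05, and the F-box list held 5 sequences, none of which passed, with a median of 0.82. These counts used the names as deposited. PC-29-3p, an unnumbered candidate in the deposited lists, has the sequence that the study's sequence list calls PN-miR2111, and it had 10 reads in the Al-treated library and 57 reads in the Al-free library (log2 ratio −2.56, adjusted exact p 1.91e-08). With it, the F-box list held 6 sequences, of which 1 fell and 5 did not pass, and its median was 0.38. It was added by number alone. Its deposited name marks it as a 3p sequence, and whether this strand targets F-box genes was not tested. The list beside miR393 and miR394 then held 11 sequences, of which 2 rose, 2 fell and 7 did not pass, with a median of −0.28.

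PN-miR164, whose number targets NAC1, a transcription factor of lateral roots in Arabidopsis, had 12 reads in the Al-treated library and 95 reads in the Al-free library. Its log2 ratio was −3.04, with an adjusted exact p of 9.16e-17. PN-miR390b, whose number starts the production of small RNAs against auxin response factor (ARF) mRNAs in Arabidopsis, had 36 reads in the Al-treated library and 13 reads in the Al-free library. Its log2 ratio was 1.42, with an adjusted exact p of 0.00732, and PN-miR390a-1 had 25 and 12 reads in the same order (log2 ratio 1.01, adjusted exact p 0.166). PN-miR390b and PN-miR393-2 thus had 36 reads each in the Al-treated library, with 13 and 19 reads in the Al-free library. Their log2 ratios had overlapping intervals, 0.47 to 2.46 and 0.03 to 1.76, and the difference between them was not tested.

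gso-miR167a, of an ARF-targeting number, had 833 reads in the Al-treated library and 541 reads in the Al-free library, with a log2 ratio of 0.57 and an adjusted exact p of 5.94e-12. Its ratio was smaller than that of PN-miR393-2, which had far fewer reads. PN-miR160b, also of an ARF-targeting number, had 163 reads in the Al-treated library and 191 reads in the Al-free library (log2 ratio −0.28, adjusted exact p 0.221), and PN-miR160c had 76 and 90 in the same order (−0.29, adjusted exact p 0.506). PN-miR2111a, whose number targets F-box genes with kelch repeats, had 31 reads in the Al-treated library and 17 reads in the Al-free library. Its log2 ratio of 0.82 (interval −0.08 to 1.76, adjusted exact p 0.199) was close to that of PN-miR393-2 and likewise did not pass. PC-29-3p, a 3p sequence by its deposited name, lay on the other side of zero. With it miR2111 summed to 41 reads in the Al-treated library and 74 reads in the Al-free library (log2 ratio −0.90, adjusted exact p 0.00564). This sum may mix opposite strands, so it does not give the direction of PN-miR2111a. The remaining sequences of the list, PN-miR164a and the opposite strands gso-mir167a-p3 and PN-mir390b-p3, had between 1 and 13 reads in either library and did not pass.

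**Figure D3:**
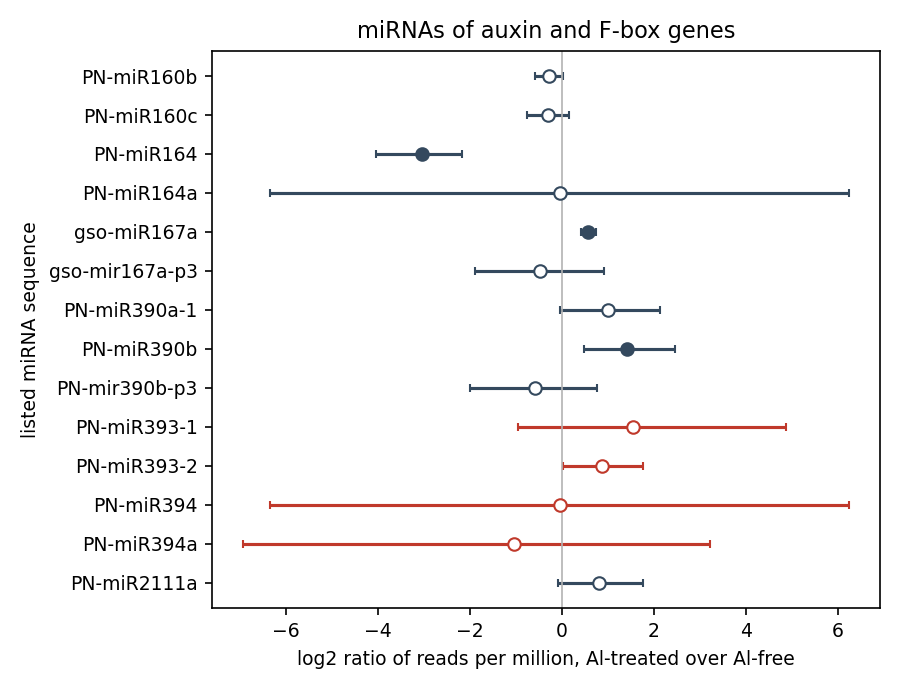
Log2 ratio of RPM, Al-treated over Al-free, with 95% exact intervals for the 14 sequences of the auxin and F-box list, miR393 and miR394 in red; filled points had an adjusted exact p under 0.05 and open points did not. PN-miR164 (−3.04), gso-miR167a (0.57) and PN-miR390b (1.42) are filled, and all 4 sequences of miR393 and miR394 are open.

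All 5 target genes of miR393 were listed in both degradome libraries. They were Glyma02g17170, Glyma10g02630, Glyma16g05500, Glyma19g27280 and Glyma19g39420, which the study annotated as leucine-rich-repeat proteins with an F-box, the domain layout of the TIR1/AFB auxin receptors. By their identifiers, 1 gene each lay on chromosomes 2, 10 and 16 of cultivated soybean (*Glycine max*), whose gene models served as the reference, and 2 lay on chromosome 19. Of all 78 target genes, 33 were listed in both libraries (42.3%). The 5 genes were 7.14% of the 70 genes in the Al-treated list and 12.2% of the 41 genes in the Al-free list. Being listed in both does not mean that cleavage was equal. The study's table of miRNAs responsive to Al does not list miR393. Its discussion nevertheless calls miR393 up-regulated under Al and reports more tags of its cut targets in the Al-free library. Those tag values were not analysed here.

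All 4 target genes of miR394 were listed in the Al-treated library alone. They were Glyma05g28050, Glyma08g11030, Glyma11g36960 and Glyma18g00870, annotated as proteins with an F-box domain, 1 each on chromosomes 5, 8, 11 and 18 by their identifiers. Of all 78 target genes, 37 were listed in the Al-treated library alone (47.4%) and 8 in the Al-free library alone. These counts, like the 33 in both libraries, are those of the deposited lists, which lack genes of miR1510. The 4 genes were 5.71% of the 70 genes in the Al-treated list. The lists hold identifiers without values, so a gene that a list does not name may have had fewer fragments than the caller required, and no test of the difference between libraries was possible.

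None of the 9 genes was listed for another miRNA. The target lists name the miRNAs as PN-miR393 and PN-miR394, so which form of miR393 was assigned to a gene cannot be told from them. PN-miR394 is also the name of the 20-nt sequence of miR394, and PN-miR394a, which has a different seed, is not named for any of these genes. Whether the listed name stood for the 20-nt sequence alone cannot be told. The genes of miR393 and of miR394 thus formed separate groups in the lists, 5 in both libraries and 4 in 1 library.

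The 2 numbers were set among the 21 miRNAs with a listed target gene, of which 20 had genes in the Al-treated list and 15 in the Al-free list. Their median was 3 genes over both lists. Of the 9 miRNAs with 5 or more genes in the deposited lists, miR393 was the only one with all of its genes in both libraries, and 5 of all 21 had this pattern. The limit of 5 genes equals the gene count of miR393 itself. miR394 was 1 of 6 miRNAs whose genes were in the Al-treated list alone, beside miR159, miR160, miR167, miR1514 and miR2109. The reads of these 6 ranged widely, between 2 and 2124 in the Al-treated library and between 3 and 3451 in the Al-free library, and miR394 was the lowest of them in both.

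By reads summed over both libraries miR394 was 2nd and miR393 8th from the lowest of the 21, and only miR399, with 1 read in each library and 1 gene in the Al-free list alone, was below miR394. When unnumbered candidates took the study's names, miR394 was 2nd and miR393 6th from the lowest of 19. Across the 17 numbered miRNAs, Spearman's rho between reads and listed genes was −0.21 in the Al-treated libraries and −0.10 in the Al-free libraries. These are descriptions over miRNAs of the same libraries, not over independent samples. A further 52 miRNA numbers had reads and no listed target gene.

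Among the numbered miRNAs, the 3 nearest to miR393 in reads over both libraries differed in their target lists. miR1514 had 54 reads in the Al-treated library and 12 reads in the Al-free library, with 3 genes in the Al-treated list and 0 in the Al-free list. miR169, which targets NF-YA transcription factor genes in Arabidopsis, had 53 reads and 9 genes in the Al-treated libraries against 18 reads and 8 genes in the Al-free libraries, 8 of the genes in both. miR172, which targets AP2-type transcription factor genes, had 18 reads and 5 genes in the Al-treated libraries against 22 reads and 4 genes in the Al-free libraries, 4 of them in both. Of the unnumbered candidates, PC-13-3p and PC-46-5p were nearer to miR393 in reads than miR172. PC-13-3p had 44 reads in the Al-treated library against 5 in the Al-free one. Its 1 gene was listed in both, as all genes of miR393 were. PC-46-5p had 26 reads and 4 genes in the Al-treated libraries against 52 reads and 3 genes in the Al-free libraries, 2 of them in both. These values used the names as deposited. With the study's names, miR172 had 30 reads and 7 genes in the Al-treated libraries against 23 reads and 5 genes in the Al-free ones. miR169 then had 82 and 37 reads, and miR403 carried the reads and gene count of PC-13-3p. The 3 numbered miRNAs nearest to miR393 were then miR1514, miR172 and miR403.

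Nearest to miR394 in reads among the numbered miRNAs were miR399, miR157 and miR172. miR157 was listed with 9 reads and 3 genes in the Al-treated libraries against 10 reads and 2 genes in the Al-free libraries, none of them shared. PC-68a-5p, an unnumbered candidate nearer to miR394 than miR157, had 12 reads and 2 genes in the Al-treated libraries against 1 read and 1 gene in the Al-free libraries, none of them shared. PC-2-5p, also unnumbered and nearer to miR394 than miR172, had 15 reads in the Al-treated library and 8 in the Al-free library. Its 2 genes were listed in both libraries. With the study's names, PC-68a-5p and PC-2-5p were not separate candidates, and miR403 took the place of miR172 among the numbered miRNAs nearest to miR394. Among the other numbers of the auxin and F-box list, miR160 had 7 target genes in the Al-treated list and 0 in the Al-free list, on 239 and 281 reads. miR167 had 1 and 0 genes in the same order, on 842 and 553 reads over both of its strands. The study reports, in the Al-treated library alone, a lipase gene as target of the opposite strand gso-mir167a-p3. That strand had 9 reads in the Al-treated library and 12 in the Al-free library. No gene was listed for miR164, miR390 or miR2111. Of the list, miR393 was therefore the only number with target genes in the Al-free library.

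**Figure D4:**
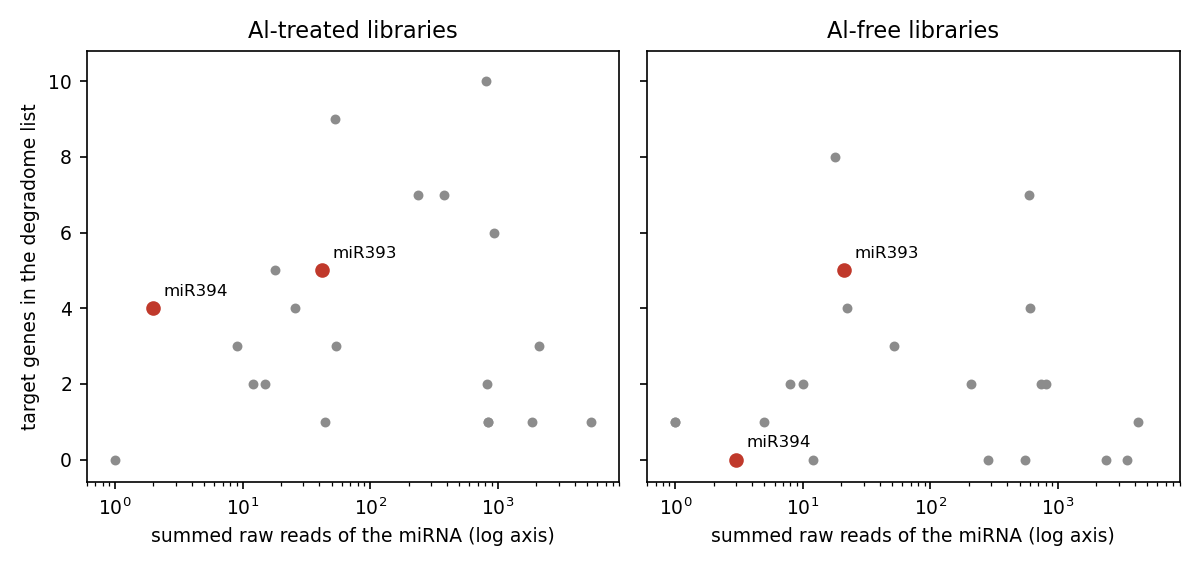
Listed target genes (vertical) against summed raw reads (horizontal, log axis) for the 21 miRNAs with a target gene, in the Al-treated libraries (left) and the Al-free libraries (right), miR393 and miR394 in red. miR393 has 5 genes at 42 reads and 5 genes at 21 reads, and miR394 has 4 genes at 2 reads and 0 genes at 3 reads.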

How the data were processed

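The authors sequenced small RNA and degradome libraries on the Illumina GAIIx, processed small RNA reads with ACGT101-miR 4.2 and called cleaved targets with CleaveLand 3.0 and ACGT301-DGE 1.0, per the labels, against *G. max* transcripts. The deposited small RNA values were raw read counts per miRNA name and sequence, which the authors had not normalized. The deposited target lists paired a miRNA name with a gene identifier and held no other value. Of 85 lines in the Al-treated target list, 8 repeated the pair gso-miR1510 and Glyma02g04750, which was counted once. The study reports 8 cut genes of gso-miR1510 in the Al-treated library, with 2 of them also in the Al-free library. The deposited Al-treated list therefore lacks genes of that miRNA, and all counts over target genes are those of the deposited lists.

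Reads were taken once per distinct sequence. The deposited lists hold only part of a library, so RPM used the clean reads per library that the study states. Exact two-sided binomial tests of the Al-treated share, with an expected share of 50.9%, were run beside Fisher's exact tests and adjusted by Benjamini-Hochberg. Clopper-Pearson and Poisson 95% intervals were also given. Tools were Python 3.11.15, NumPy 2.4.6, SciPy 1.17.1 and, for figures, matplotlib 3.10.9. The binomial procedure was tested on simulated counts with Poisson error and a known depth ratio. That simulation does not cover variation between libraries or the choice of scaling. No pseudocount was used, except in 1 alternative that added 1 read.

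Named were every sequence and target gene of miR393 and miR394, the auxin and F-box list by number, the 3 numbered miRNAs with targets nearest in summed reads to miR393 and to miR394, and the most abundant sequence where a scaling turned on it. PC-29-3p, PC-13-3p, PC-46-5p, PC-68a-5p and PC-2-5p, unnumbered in the deposited lists, were named after their values were seen. Names were used as deposited. An alternative gave candidates the number that the study's list gives the same sequence. These members and lists were chosen with earlier results of these data known. Alternatives were other library totals, read minimums, name handling and ways of counting target genes.

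None of the 9 target identifiers matched the 59365 genes of the reference table, which follows another assembly, so no target site, promoter or protein is printed. Raw reads, the study's degradome tag values and its qRT-PCR were not analysed here.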

Additional observations from a re-analysis of the deposited data

How the results depend on the processing

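The direction of miR393 was the same under every alternative run, but its call was not. Its log2 ratio was 0.45 with the summed listed reads as library totals, 0.86 with these totals without the most abundant sequence, gso-miR2218 (19061 reads in the Al-treated library and 7282 in the Al-free library), 0.74 with the median of ratios, 0.84 with the factors of the study's table and 0.92 with 1 read added, with adjusted exact p-values of 0.479, 0.0713, 0.153, 0.0935 and 0.0552. Scaling by the summed listed reads moved every log2 ratio by −0.50. In alternatives added after seeing the data, the 22-nt sequence alone gave 0.87 and the 21-nt sequence alone 1.53, neither past the test, and the study's names for unnumbered candidates left 0.95 with an adjusted exact p of 0.0502. miR394 stayed below zero and unpassed, between −1.13 and −0.47, on 5 reads, which is a limit of depth. The sequences beyond the fold limit numbered 38, against 78 with no read minimum and 25 with at least 10 reads in both libraries, and 40 with the study's names. The share of target genes in the Al-treated list alone was 47.4%, and 48.0% without miR1510, an alternative added after seeing the data. Counted by miRNA and not by gene, 6 of the 21 miRNAs (28.6%) had genes in the Al-treated list alone. No paired analysis was possible because each condition had 1 library per assay.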
